A study of Danio rerio with 9 samples.

Results

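Methyl groups on histone tails are added by methyltransferases, called writers here, and removed by demethylases, called erasers. The genes for both were taken from the expression table of the zebrafish heads by name: every gene whose Ensembl name begins with kmt, kdm, setd, ezh, ehmt, suv39, nsd and a digit, prmt, dot1l, ash1l, eed or suz12. These were 69 of the 32520 genes in the table, and comprised 43 writers, 21 erasers and 5 other SET-domain genes (SETD3, SETD4, SETD5, SETD6 and SETD9) that were counted apart because their best known substrates are not histones or are uncertain. No measured value entered this name rule, although the set was chosen with earlier results of these data known. The writers were 11 for H3K4, 7 for H3K9, 6 for H3K36, 4 for H4K20 and 1 for H3K79, together with 5 core genes of Polycomb repressive complex 2 (PRC2), which methylates H3K27, and 9 protein arginine methyltransferases. The erasers were 5 for H3K4, 11 for H3K9 and H3K36, 4 for H3K27, and KDM8. Each gene was put in 1 class only, and an enzyme may act on more marks than its class names. A mark is named by its histone, the modified residue (K for lysine) and the position of that residue. Of these genes 59 had a mean of at least 1 FPKM (mapped fragments scaled by transcript length and by the size of the library) over the 9 samples and were tested, that is 34 writers, 21 erasers and 4 other SET genes. The remaining 10 were too low for the test and are described separately.

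The heads belonged to 3 groups of 3 samples, all of the Tubingen wild-type strain at the long-pec stage (2 dpf), and each library held the pooled RNA of 5 heads. The ZM group was made germ-free and then immediately given a filter-sterilised extract of adult male zebrafish intestines. The GF group was made germ-free with gentamicin and a hypochlorite wash during gastrulation and received no extract. The CV group was raised conventionally, with no antibiotic, wash or extract. The comparison of GF with CV addresses what the loss of microbes, together with the sterilisation itself, did to expression, and that of ZM with GF what the extract did to germ-free larvae.

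Lysine writers of the SET family and DOT1L take the methyl group from S-adenosylmethionine. The erasers use different chemistry: KDM1A is a flavin-dependent oxidase, whereas the other KDM proteins carry a JmjC domain and need iron, oxygen and 2-oxoglutarate. Methylation of H3K4 is typical of active promoters and enhancers and that of H3K36 of transcribed gene bodies, while H3K9 and H3K27 methylation is typical of silent chromatin. In the vertebrate brain PRC2 and the KDM6 erasers act in opposite directions on neural genes during differentiation, and KDM1A with its partner RCOR represses neuronal genes in non-neuronal cells.

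Groups were compared by limma on the log2(FPKM + 1) scale. One model held the 9 samples, p-values were adjusted by Benjamini-Hochberg over the 15904 genes tested, and a gene was called at an adjusted p under 0.1. The model gave each gene 1 variance for all groups, so its SE was the same in every comparison. A group with a wide spread thus widened the errors of a comparison it was not part of, and a tight group narrowed them. On this scale the change of a gene with low FPKM is understated. The summed FPKM of a library ranged between 676251 and 705494 in ZM, 666444 and 704307 in GF, and 587431 and 657383 in CV, and the number of reads behind a value cannot be read from FPKM. Markers of neurons, neural progenitors, lens, skin, muscle and erythrocytes were all detected, and the yolk gene vtg1 was near 0. One library stood apart from its label. Over the 59 tested genes the root mean square log2 distances of CV 2 were 0.332, 0.431 and 0.542 to GF 1, GF 2 and GF 3. They were 0.644 and 0.843 to CV 1 and CV 3, so CV 2 lay nearer to GF. The counts and the calls that depend on CV 2 are therefore also given without it. CV 2 was picked from the values of these same genes, as the CV library nearest to GF. Leaving it out therefore tends to widen the differences from CV and to narrow the spread in CV. Calls and p-values without CV 2 are thus descriptions and add no separate support.

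**Figure D1:**
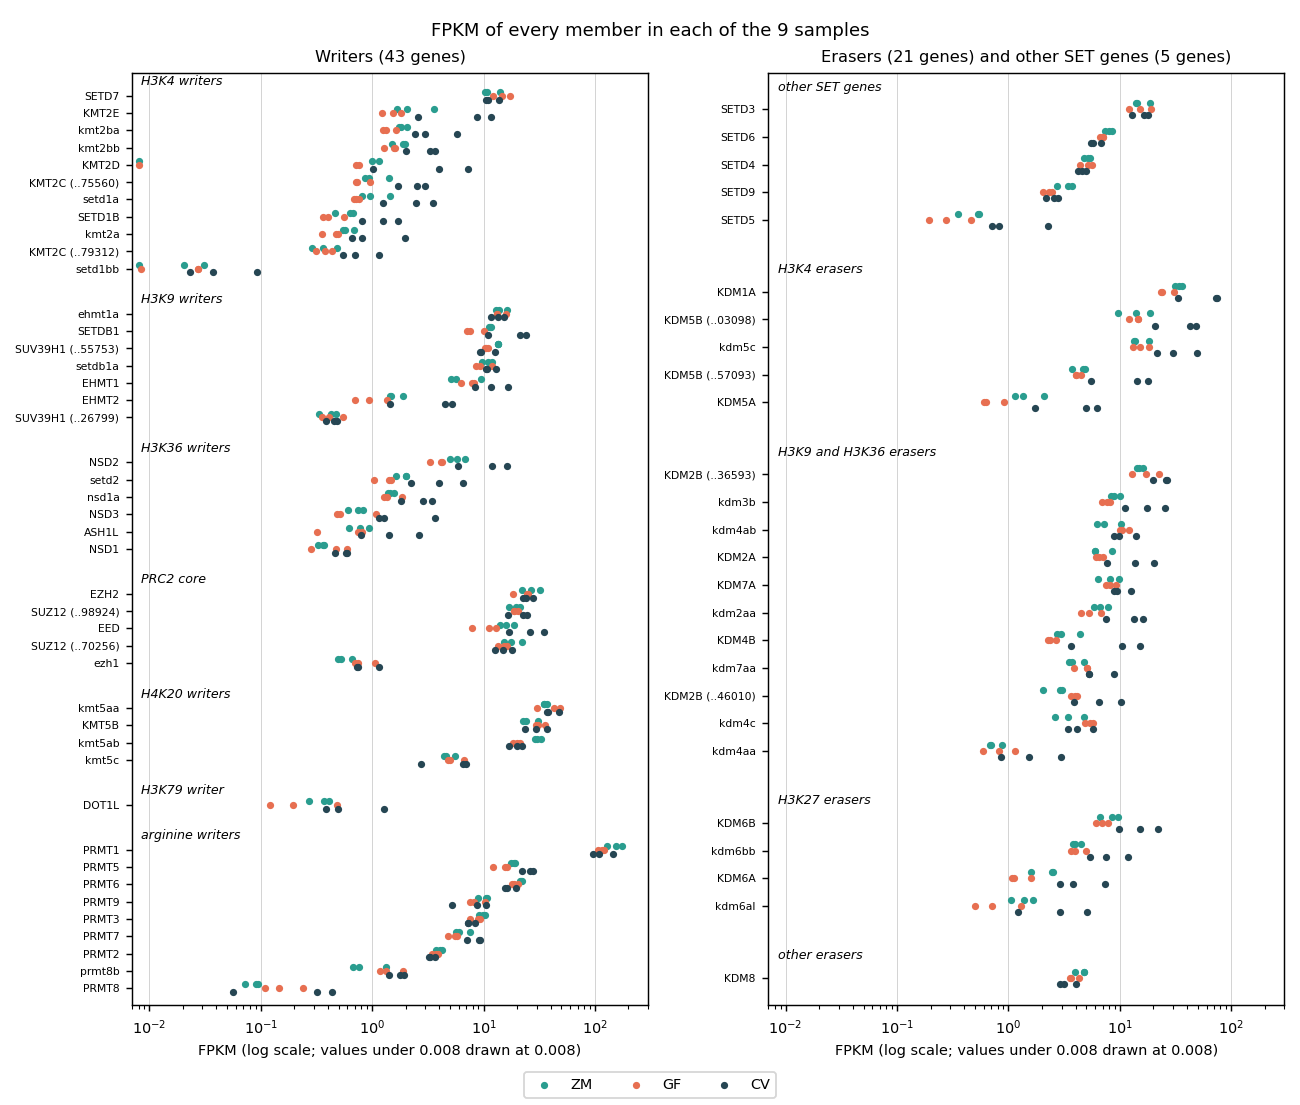
FPKM (log scale) of each of the 69 genes in each of the 9 samples, with ZM, GF and CV on separate rows within a gene and genes ordered by class and mean level. PRMT1 stood above all other members, 10 genes had a mean under 1 FPKM, and in most erasers the CV points spread to the right of the ZM and GF points.

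The levels of the 69 genes covered a wide range on the FPKM scale, which is relative to transcript length and so allows genes to be set side by side. PRMT1 (ENSDARG00000010246), the main enzyme for asymmetric arginine methylation, was the highest, with 175, 153 and 127 FPKM in ZM, 119.9, 107 and 116 FPKM in GF, and 96.9, 146 and 109 FPKM in CV. The arginine writers summed to between 200 and 248 FPKM in ZM, 167 and 187 in GF, and 167 and 219 in CV. Among the writers the H4K20 class followed with 92.0 to 99.8 FPKM in ZM, 84.5 to 111 in GF and 93.4 to 98.6 in CV, and the PRC2 core with 73.3 to 90.5, 59.4 to 74.2 and 86.5 to 89.3. The H3K4 writers, which include the large MLL proteins, were low by comparison, with sums of 20.2 to 23.7 FPKM in ZM, 19.3 to 26.4 in GF and 29.8 to 50.4 in CV. Among the erasers KDM1A was the highest, and the H3K27 erasers were low, with 13.8 to 17.9 FPKM in ZM, 12.1 to 15.1 in GF and 19.4 to 46.1 in CV.

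In GF heads 26 of the 59 tested genes were lower than in CV heads and 0 were higher (limma, adjusted p under 0.1), that is 44.1% of the tested members, where 11.6% of all genes tested were called lower and 0.78% higher. Erasers made up 13 of the 26 calls, from 21 tested (61.9%), and writers the other 13, from 34 tested (38.2%). The median log2 fold change was -0.99 for erasers and -0.38 for writers, against 0.02 for all genes tested. Among writers the calls fell in the H3K4 class with 6 of 7, while H3K9 and H3K36 had 2 of 6 and 2 of 5, the PRC2 core 1 of 4, the arginine writers 2 of 8 and the H4K20 writers 0 of 4. In these bulk samples fewer cells of a type and less RNA per cell cannot be told apart. No member passed an adjusted p of 0.05, the threshold the study used for this comparison (0.00629% of all genes tested did, in the lower direction), and an unadjusted p under 0.05 was found for 31 with lower and 0 with higher FPKM in GF (52.5%, where 18% and 4.7% of all genes tested did so). The GF and CV libraries did not overlap for 28 members, all with GF below (47.5%, background 17.7%), and none with GF above (background 9.14%).

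Of the 59 genes 8 had a mean under 1 FPKM in GF and passed the filter through the other groups. They were 3 of the 21 tested erasers and 5 of the 34 tested writers, and held 5 of the 26 calls. Of these 5 calls 2 were erasers (KDM5A and kdm6al) and 3 were writers. Among the genes with a GF mean at or above the filter 11 erasers and 10 writers were called. The share of all genes under the same restriction is not given. The calls rested on few samples. Without CV 2 the count rose to 31 of 59 (52.5%, against 17% of all genes tested), with 15 of 21 erasers and 16 of 34 writers, medians of -1.27 and -0.46, and 25 of the 26 calls kept. It was 0 without CV 1, without CV 3, and without GF 1, GF 2 or GF 3, when the unadjusted p was under 0.05 for 26 to 30 members. The share of all genes at that unadjusted p is not given for these fits. In these 5 fits 0 or 1 of all 15904 genes was called lower, so the loss was one of the whole table.

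**Figure D2:**
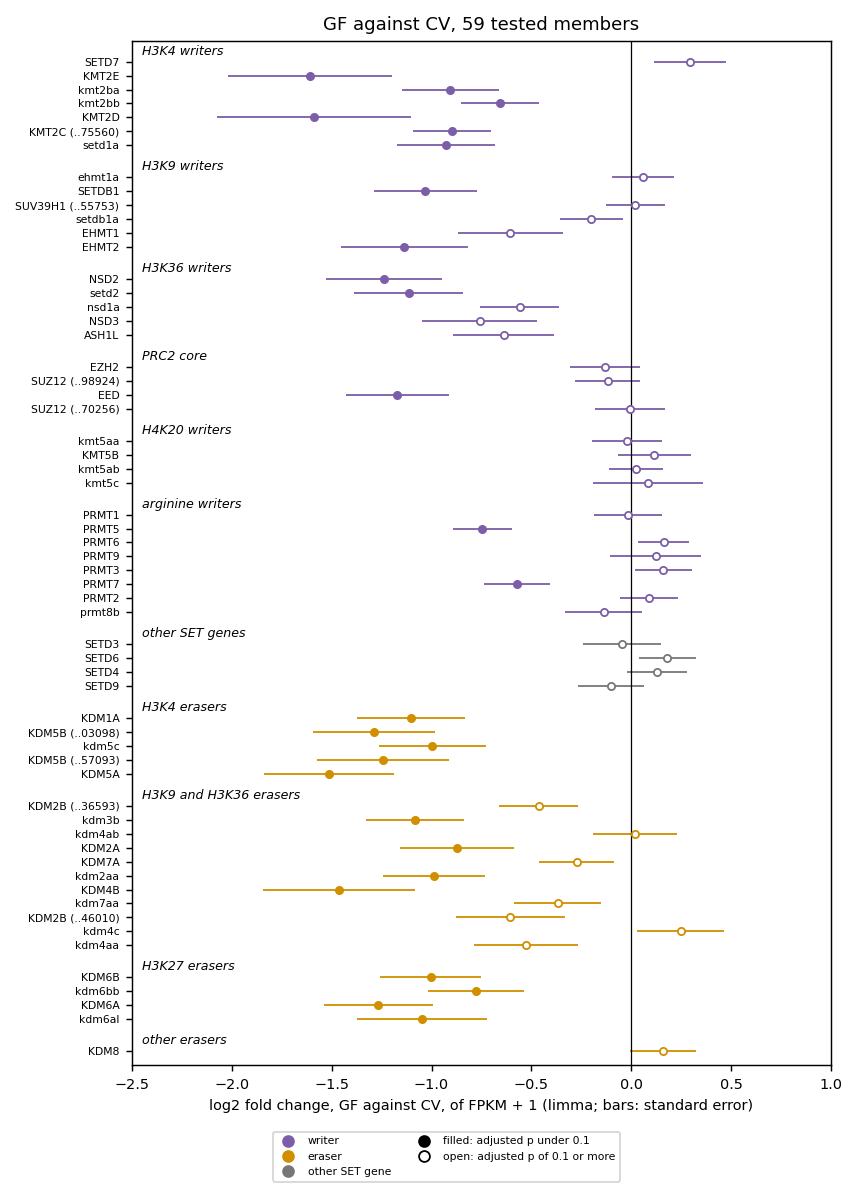
Fitted log2 fold change of FPKM + 1 in GF against CV for the 59 tested genes (limma), with bars for the standard error and filled points for an adjusted p under 0.1. The 26 filled points all lie left of 0. They include every gene put in the H3K4 and H3K27 eraser classes and none of the H4K20 writers.

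All 5 H3K4 erasers fell in GF. KDM1A (ENSDARG00000060679), which takes methyl groups off mono- and dimethylated H3K4 in the CoREST complex, had 31.0, 33.7 and 35.98 FPKM in ZM, 30.8, 24.0 and 23.4 FPKM in GF, and 74.6, 33.4 and 72.9 FPKM in CV. CV 1 and CV 3 were far above the other libraries, and CV 2 was within the range of ZM and just above GF 1. Between GF and CV the log2 fold change was -1.10 (SE 0.27, adjusted p = 0.0537, limma), and the GF mean was 0.432 times the CV mean. The KDM5 proteins remove di- and trimethylation of H3K4. KDM5A (ENSDARG00000104567) had 1.34, 2.08 and 1.14 FPKM in ZM, 0.920, 0.598 and 0.634 FPKM in GF, and 4.94, 1.72 and 6.23 FPKM in CV. The GF samples were the lowest 3 of the 9, and the log2 fold change of -1.51 (SE 0.33, adjusted p = 0.0531) was the most negative of the erasers, with a GF mean of 0.717 ± 0.177 FPKM and a CV mean of 4.29 ± 2.32 FPKM (SD, n = 3 each). KDM5A thus passed the filter through its other groups.

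The KDM5B gene ENSDARG00000003098 had 9.56, 14.1 and 18.8 FPKM in ZM, 14.4, 14.7 and 12.1 FPKM in GF, and 42.2, 20.8 and 47.9 FPKM in CV, and its copy ENSDARG00000057093 was lower throughout, with 3.69, 4.66 and 4.86 FPKM in ZM, 4.47, 4.04 and 4.03 FPKM in GF, and 14.2, 5.46 and 17.7 FPKM in CV. In both genes every CV library was above every GF library, and CV 2 was the lowest of the CV libraries. Their log2 fold changes in GF against CV were -1.29 (SE 0.31, adjusted p = 0.0531) and -1.24 (SE 0.33, adjusted p = 0.0577). The ratio of the first to the second was 2.59, 3.03 and 3.86 in ZM, 3.23, 3.63 and 2.995 in GF, and 2.97, 3.81 and 2.70 in CV, so the groups overlapped. How reads of such copies were divided is not given in the sources used here. The fifth gene, kdm5c, fell by 0.997 on the log2 scale (SE 0.27, adjusted p = 0.0583).

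The 4 genes classed as H3K27 erasers, which counteract PRC2, also fell. KDM7A and kdm7aa were classed with the erasers of H3K9 and H3K36 and did not pass (adjusted p = 0.435 and 0.348, limma). KDM6A (ENSDARG00000061759, also called UTX) had 2.51, 2.45 and 1.58 FPKM in ZM, 1.59, 1.12 and 1.07 FPKM in GF, and 3.82, 2.91 and 7.38 FPKM in CV. Here CV 2 was also clearly above the GF libraries, with a log2 fold change of GF over CV of -1.27 (SE 0.27, adjusted p = 0.0531). KDM6B (ENSDARG00000088087, JMJD3) had 8.56, 9.57 and 6.66 FPKM in ZM, 7.88, 6.96 and 6.07 FPKM in GF, and 15.2, 9.88 and 21.9 FPKM in CV, with a log2 fold change of -1.01 (SE 0.25, adjusted p = 0.0548). Its paralog kdm6bb (ENSDARG00000056929) had 3.81, 4.46 and 3.95 FPKM in ZM, 4.96, 3.96 and 3.65 FPKM in GF, and 7.45, 5.38 and 11.8 FPKM in CV (-0.78, SE 0.24, adjusted p = 0.0834). In these 3 genes CV 3 was the highest library and the GF and CV groups did not overlap. In kdm6al, the paralog of KDM6A, GF 3 with 1.31 FPKM was above CV 2 with 1.22 FPKM, and the log2 fold change was -1.05 (SE 0.33, adjusted p = 0.0859). The GF mean of kdm6al was 0.836 FPKM, and the gene passed the filter through its other groups.

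The 11 erasers of H3K9 and H3K36 divided. KDM2A, KDM4B, kdm2aa and kdm3b fell, and the other 7 did not pass the test, with fitted log2 fold changes between -0.61 and 0.25. kdm3b (ENSDARG00000062267), whose mammalian counterpart demethylates H3K9, had 10.05, 8.81 and 8.35 FPKM in ZM, 8.11, 6.85 and 7.72 FPKM in GF, and 17.6, 11.04 and 25.5 FPKM in CV (-1.08, SE 0.25, adjusted p = 0.0531). KDM2A (ENSDARG00000078133), a CpG-binding eraser of H3K36 methylation, had 5.99, 6.03 and 8.55 FPKM in ZM, 7.08, 6.55 and 6.16 FPKM in GF, and 13.7, 7.65 and 20.1 FPKM in CV (-0.87, SE 0.28, adjusted p = 0.0968). In both genes CV 1 and CV 3 stood well above the other 7 libraries.

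Of the 2 genes named KDM2B, a relative of KDM2A that also recruits a Polycomb complex to CpG islands, ENSDARG00000036593 had 16.1, 14.96 and 14.1 FPKM in ZM, 22.7, 17.1 and 12.9 FPKM in GF, and 26.5, 19.8 and 26.2 FPKM in CV, and did not pass (-0.46, SE 0.20, adjusted p = 0.199). The other, ENSDARG00000046010, had 2.06, 2.91 and 3.02 FPKM in ZM, 3.99, 3.64 and 4.11 FPKM in GF, and 6.51, 3.90 and 10.3 FPKM in CV (-0.61, SE 0.27, adjusted p = 0.221). In each of them GF 1 or GF 3 reached above CV 2. Both passed the test without CV 2 (adjusted p = 0.0878 and 0.0226). The KDM4 genes erase tri- and dimethylated H3K9 and H3K36 and behaved differently from each other: kdm4ab (ENSDARG00000019103) had 7.26, 6.18 and 10.2 FPKM in ZM, 12.2, 10.4 and 10.1 FPKM in GF, and 9.80, 8.90 and 14.0 FPKM in CV (0.02, SE 0.21, adjusted p = 0.969). Its paralog kdm4aa (ENSDARG00000018782) was lower, at 0.883, 0.688 and 0.693 FPKM in ZM, 1.15, 0.828 and 0.597 FPKM in GF, and 0.862, 1.52 and 2.98 FPKM in CV (-0.53, SE 0.26, adjusted p = 0.264). For kdm4c (ENSDARG00000061504) the GF libraries, at 5.79, 4.85 and 5.44 FPKM, lay near the top of the 9, against 3.45, 4.11 and 5.71 FPKM in CV (0.25, SE 0.22, adjusted p = 0.549), while KDM4B had the second most negative fold change of the erasers (-1.46, SE 0.38, adjusted p = 0.0562).

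KDM8 (ENSDARG00000102512, JMJD5), whose activity on histones is disputed, was the remaining eraser, with 4.72, 4.75 and 3.95 FPKM in ZM, 4.32, 3.64 and 3.57 FPKM in GF, and 3.17, 4.01 and 2.88 FPKM in CV. GF and CV overlapped (0.16, SE 0.17, adjusted p = 0.619).

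Of the 7 tested writers of H3K4 6 fell, and SETD7 was the exception. In 3 of the 6 (KMT2D, setd1a and the tested KMT2C gene) the GF mean was under 1 FPKM and the gene passed the filter through its other groups. For KMT2D the ZM mean was under 1 FPKM as well, so it passed through CV alone. KMT2E (ENSDARG00000007523) belongs to the MLL family by sequence, although little catalytic activity is known for it, and had 2.06, 3.60 and 1.66 FPKM in ZM, 1.82, 1.22 and 1.53 FPKM in GF, and 8.82, 2.59 and 11.7 FPKM in CV. CV 2 was below ZM 2 and nearer to the GF libraries than to CV 1 and CV 3, and the log2 fold change of GF over CV, -1.61 (SE 0.41, adjusted p = 0.0562), was the most negative of the 59 genes. KMT2D (ENSDARG00000037060), which methylates H3K4 at enhancers and is mutated in Kabuki syndrome in man, had 1.16 and 0.997 FPKM in ZM 1 and ZM 2 and was listed at 0 in ZM 3, had 0.769 and 0.720 FPKM in GF 1 and GF 2 and was listed at 0 in GF 3, and had 1.03, 3.96 and 7.21 FPKM in CV 1, CV 2 and CV 3. The CV libraries differed widely among themselves, the fitted log2 fold change was -1.59 (SE 0.49, adjusted p = 0.0817), and KMT2D was the single call lost when CV 2 was left out. The other 4 calls, kmt2ba, kmt2bb, setd1a and the KMT2C gene ENSDARG00000075560, had log2 fold changes between -0.93 and -0.66, and in each the GF and CV libraries did not overlap.

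SETD7 (ENSDARG00000038858), a monomethyltransferase that also acts on many other proteins, had 10.3, 10.7 and 14.1 FPKM in ZM, 17.4, 12.1 and 14.5 FPKM in GF, and 10.5, 13.7 and 10.97 FPKM in CV. The groups overlapped, and its log2 fold change of 0.29 (SE 0.18, adjusted p = 0.372) was the highest of the 59.

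Among the H3K36 writers NSD2 and setd2 fell. NSD2 (ENSDARG00000026225), which dimethylates H3K36, had 5.72, 5.01 and 6.76 FPKM in ZM, 4.19, 4.23 and 3.28 FPKM in GF, and 11.9, 5.93 and 16.1 FPKM in CV (-1.24, SE 0.29, adjusted p = 0.0531). setd2 (ENSDARG00000062244), the counterpart of the main enzyme for H3K36 trimethylation in mammals, had 2.03, 2.01 and 1.63 FPKM in ZM, 1.40, 1.48 and 1.04 FPKM in GF, and 4.03, 2.24 and 6.55 FPKM in CV (-1.11, SE 0.27, adjusted p = 0.0533). In both the GF libraries were the lowest 3 of the 9 and CV 3 was the highest. The other 3 tested genes of the class, nsd1a, NSD3 and ASH1L, had log2 fold changes between -0.76 and -0.56 and passed when CV 2 was left out. NSD3 and ASH1L had means under 1 FPKM in both GF and ZM and passed the filter through CV alone.

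Among the H3K9 writers SETDB1 and EHMT2 fell. SETDB1 (ENSDARG00000099021), which trimethylates H3K9 at silenced repeats, had 11.6, 11.3 and 11.3 FPKM in ZM, 10.1, 7.63 and 7.12 FPKM in GF, and 21.2, 10.9 and 24.3 FPKM in CV, and fell in GF by 1.03 on the log2 scale (SE 0.26, adjusted p = 0.0545). Its paralog setdb1a did not pass (-0.20, SE 0.16, adjusted p = 0.508). The ratio of SETDB1 to setdb1a was 0.977, 1.16 and 1.03 in ZM, 0.860, 0.828 and 0.830 in GF, and 2.0, 1.01 and 1.89 in CV, lower in every GF library than in every CV library (exact permutation test, two-sided p = 0.1, the smallest that 3 against 3 allow). As SETDB1 was already called lower, this ratio largely repeats that difference and adds no separate support. EHMT1 (ENSDARG00000026634), which mono- and dimethylates H3K9 with EHMT2, had 5.65, 5.14 and 9.58 FPKM in ZM, 8.22, 7.89 and 6.25 FPKM in GF, and 11.7, 8.46 and 16.4 FPKM in CV (-0.61, SE 0.26, adjusted p = 0.206). Its paralog ehmt1a (ENSDARG00000068157) overlapped in all groups, with 16.2, 12.9 and 13.7 FPKM in ZM, 15.9, 13.1 and 13.2 FPKM in GF, and 11.7, 15.4 and 13.4 FPKM in CV (0.06, SE 0.15, adjusted p = 0.856). EHMT1 passed without CV 2 (-0.82, adjusted p = 0.0676). The ratio of EHMT1 to ehmt1a was 0.516, 0.600 and 0.473 in GF, and 1.0, 0.548 and 1.22 in CV, so that CV 2 alone lay in the range of GF. EHMT2 itself fell by 1.14 on the log2 scale (SE 0.32, adjusted p = 0.0643).

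In the PRC2 core the subunits differed. EED (ENSDARG00000099640), the subunit that binds trimethylated H3K27, had 15.9, 18.8 and 14.0 FPKM in ZM, 11.2, 13.0 and 7.82 FPKM in GF, and 34.7, 16.9 and 26.0 FPKM in CV, and fell in GF by 1.17 on the log2 scale (SE 0.26, adjusted p = 0.0531). EZH2 (ENSDARG00000010571), the catalytic subunit, had 32.2, 26.8 and 22.1 FPKM in ZM, 25.1, 24.4 and 18.5 FPKM in GF, and 23.9, 28.1 and 22.5 FPKM in CV (-0.13, SE 0.18, adjusted p = 0.705). The ratio of EED to EZH2 was 0.494, 0.702 and 0.634 in ZM, 0.445, 0.531 and 0.424 in GF, and 1.45, 0.601 and 1.15 in CV, with no overlap of GF and CV (exact permutation test, two-sided p = 0.1, the smallest possible). As EED was already called lower, this ratio largely repeats that difference and adds no separate support. SUZ12 (ENSDARG00000098924), the scaffold subunit, had 19.7, 16.8 and 21.4 FPKM in ZM, 20.4, 18.8 and 18.8 FPKM in GF, and 16.6, 22.8 and 24.5 FPKM in CV (-0.12, SE 0.16, adjusted p = 0.72), and its copy ENSDARG00000070256 had a log2 fold change of -0.01. Of these 4 genes EED thus was the one whose GF and CV libraries were apart.

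**Figure D3:**
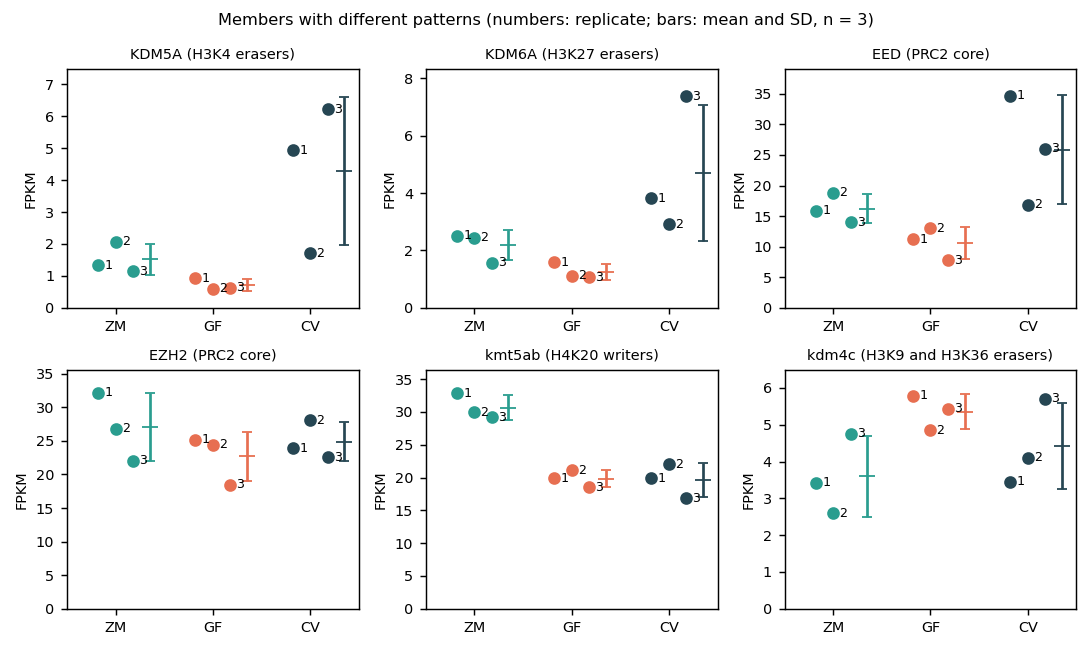
FPKM in each sample (numbers are replicates) with the mean and SD of each group (n = 3) for 6 genes that represent different patterns. KDM5A, KDM6A and EED are lowest in GF and high in CV 1 and CV 3, EZH2 overlaps between the groups, kmt5ab is highest in the 3 ZM samples and kdm4c is highest on average in GF.

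The H4K20 writers did not differ detectably between GF and CV, with log2 fold changes between -0.02 and 0.12 and 0 of 4 at an unadjusted p under 0.05. kmt5aa (ENSDARG00000105231), one of the genes for the H4K20 monomethyltransferase, had 37.5, 34.7 and 34.9 FPKM in ZM, 48.3, 43.4 and 30.5 FPKM in GF, and 47.4, 37.0 and 38.2 FPKM in CV. KMT5B (ENSDARG00000041081), which adds the further methyl groups, had 23.9, 22.7 and 30.7 FPKM in ZM, 35.9, 29.7 and 30.7 FPKM in GF, and 23.4, 29.5 and 37.0 FPKM in CV. The groups overlapped in both.

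Of the arginine writers PRMT5, an enzyme for symmetric arginine methylation, and PRMT7, an enzyme for monomethylated arginine, fell in GF. PRMT5 (ENSDARG00000079605) had 18.8, 19.0 and 17.5 FPKM in ZM, 16.3, 15.7 and 12.2 FPKM in GF, and 27.6, 22.1 and 26.1 FPKM in CV (-0.75, SE 0.15, adjusted p = 0.0531), with tight replicates and all 3 groups apart from each other. CV 2 was here well above the GF libraries. PRMT7 had a log2 fold change of -0.57 (SE 0.17, adjusted p = 0.0716). The other 6 lay between -0.14 and 0.16, PRMT1 among them at -0.02 (SE 0.17, adjusted p = 0.969). Of the other SET genes, SETD3 (ENSDARG00000016513), a histidine methyltransferase of actin, had 14.3, 18.5 and 14.0 FPKM in ZM, 19.0, 15.2 and 12.1 FPKM in GF, and 16.6, 18.04 and 12.8 FPKM in CV, and SETD6 (ENSDARG00000043986), which methylates the NF-κB subunit RELA in man, had 8.07, 8.47 and 7.31 FPKM in ZM, 7.02, 7.06 and 6.67 FPKM in GF, and 5.79, 6.72 and 5.48 FPKM in CV. Neither passed the test (-0.04 and 0.18).

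When the FPKM of the 21 erasers were summed, the libraries gave 146, 155 and 171 in ZM, 173, 144 and 136 in GF, and 315, 189 and 400.4 in CV. The sums of the 43 writers were closer together, with 531, 485 and 468 in ZM, 468, 415 and 395 in GF, and 479, 500.5 and 536 in CV. The erasers thus summed to 0.275, 0.320 and 0.365 of the writers in ZM, 0.370, 0.346 and 0.345 in GF, and 0.658, 0.377 and 0.747 in CV. For this ratio each GF library lay below each CV library, but CV 2 was close to GF 1. Against the lysine writers and PRC2 without the arginine enzymes the ratio was 0.516, 0.592 and 0.636 in ZM, 0.617, 0.578 and 0.619 in GF, and 1.01, 0.670 and 1.13 in CV. These sums are dominated by the genes with the highest FPKM, KDM1A among the erasers and PRMT1 among the writers, and were not tested.

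**Figure D4:**
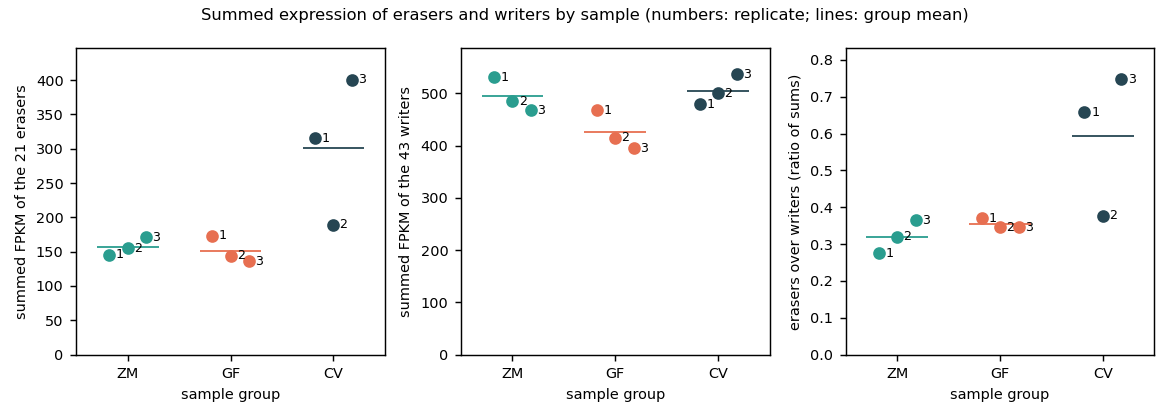
Summed FPKM of the 21 erasers, of the 43 writers, and their ratio in each sample, with lines for the group means. The erasers and the ratio are high in CV 1 and CV 3 (ratios of 0.658 and 0.747), while CV 2 (0.377) stands beside the ZM and GF libraries, and the writers differ less between groups.

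The CV libraries also varied more among themselves. The median SD of log2(FPKM + 1) over the erasers was 0.218 in ZM, 0.146 in GF and 0.569 in CV, and over the writers 0.141 in ZM, 0.168 in GF and 0.311 in CV, against 0.187, 0.178 and 0.270 for all genes tested. The SD in CV exceeded that in GF for 20 of 21 erasers (95.2%) and 26 of 34 writers (76.5%), where it did for 70.6% of all genes tested. Over the 26 genes lower in GF, CV 2 was the lowest CV library in 25 and still above all 3 GF libraries in 25, and CV 3 was the highest in 21. The median ratio of the library to the GF mean over these genes was 2.95 for CV 1, 1.47 for CV 2 and 3.60 for CV 3. These genes were selected for being lower in GF. Over all 59 tested members the ratios were 1.64, 1.28 and 2.20, and CV 2 was the lowest CV library in 34 and above all 3 GF libraries in 38.

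Some marker genes moved with these groups, and their part in the results above was not tested. The share of all genes called lower in GF was 11.6%, as above, and 17% without CV 2. Of the photoreceptor list 3 of 6 tested genes were called lower in GF (4 of 6 without CV 2), and its summed FPKM was 11.3 to 23.0 in ZM, 13.4 to 20.4 in GF and 26.4 to 80.6 in CV. Of the neuron list 1 of 8 was called lower, ELAVL3 (-1.39, adjusted p = 0.0531), an RNA-binding protein of young neurons, with sums for the list of 749 to 1090 in ZM, 993 to 1229 in GF and 920 to 1283 in CV. The 2 neuron genes named STMN1 were higher in every GF library than in every CV library, 1 of them (ENSDARG00000033655) at an unadjusted p under 0.05 (0.46, adjusted p = 0.113). Of all genes tested 9.14% were higher in GF without overlap. The fitted log2 fold change was below 0 for 5 of the 8 neuron genes, with a median of -0.33. Of the lens list 2 of 5 were called lower, CRYBB1 and the MIP gene ENSDARG00000013963, while the median of the list was 0.21 and crygm2d20 was higher in every GF library (0.67, adjusted p = 0.119). Of the early stress list 2 of 7 were called lower (3 of 7 without CV 2), egr1 and JUNB, with sums of 1731 to 3484 in ZM, 2061 to 3469 in GF and 1977 to 2819 in CV. With all 9 samples the lists for neural progenitors, proliferation, erythrocytes, muscle, skin, and liver and yolk held 0 calls (limma). Without adjustment p was under 0.05 for 2 of 6 progenitor genes and 1 of 5 skin genes with lower and 3 of 5 skin genes with higher FPKM in GF. It was so for none of the other 4 lists, where 18% of all genes tested were lower and 4.7% higher at that p. Without CV 2, 1 of 6 progenitor, 1 of 7 proliferation and 1 of 5 skin genes were called lower in GF. In that fit 1 of 8 neuron, 1 of 5 lens and 1 of 5 skin genes were called higher, where 6.03% of all genes tested were.

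Among the writers the less expressed genes tended to have the more negative fold changes. The Spearman correlation across genes between the mean log2 level and the log2 fold change of GF over CV was 0.51 over 34 writers and -0.02 over 21 erasers, beside 0.31 over all 15904 genes tested, and in ZM against CV it was 0.64, -0.18 and 0.34. Genes are not independent replicates, both axes come from the same libraries, and a gene below the filter in GF is kept by its CV values, so these are descriptions. With a filter at 5 FPKM in place of 1, which leaves 37 of the 59 genes, the median of the writers in GF against CV was -0.015. In that fit 5 writers and 8 erasers were still called lower in GF, where 7.68% of all genes tested were.

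**Figure D5:**
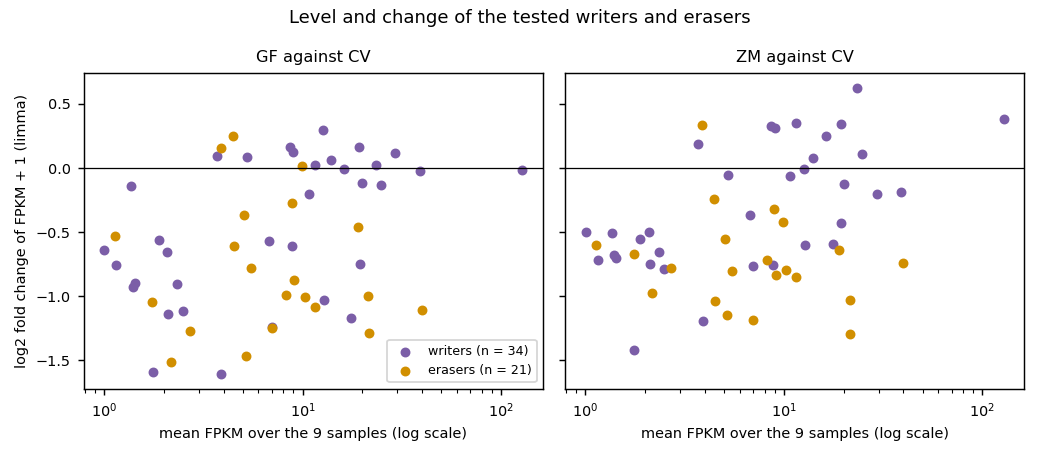
Log2 fold change of FPKM + 1 (limma) against the mean FPKM over the 9 samples (log scale) for the 34 tested writers and 21 tested erasers, in GF against CV (left) and ZM against CV (right). Most writers with a low mean lie below 0 and most with a high mean around or above it, whereas erasers lie below 0 over most of the range. EED, SETDB1 and PRMT5 have a high mean and lie below 0 in both panels.

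Between germ-free larvae with and without the gut extract no member passed the test. In ZM against GF 0 were called lower and 0 higher at an adjusted p under 0.1 (limma; 0% of all genes tested were lower and 0.00629% higher). Before adjustment p was under 0.05 for 6 members, of which 5 were higher (8.5%, where 2.55% of all genes tested were) and 1 was lower (1.7%, background 3.16%). All 3 ZM libraries lay above all 3 GF libraries for 18 members (30.5%, background 10.4%), of which 12 were writers and 4 erasers. They lay below them for 2 (background 6.17%). KDM5A and setd1a are among the 18. Their GF means were 0.717 and 0.723 FPKM, and they passed the filter through their other groups. The share of all genes without such genes is not given. The median log2 fold change was 0.19 for writers and 0.03 for erasers, against 0.00 for all genes tested. The errors of this comparison also held the spread in CV (median SD over erasers 0.569, against 0.146 in GF and 0.218 in ZM). In a fit of ZM and GF only, 0 members were called. Without adjustment p was then under 0.05 for 11 with higher and 3 with lower FPKM in ZM (limma). The share of all genes at that p is not given for that fit.

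The highest fold change belonged to kmt5ab (ENSDARG00000104114), a second gene for the H4K20 monomethyltransferase, with 32.9, 29.96 and 29.2 FPKM in ZM, 19.9, 21.1 and 18.5 FPKM in GF, and 19.9, 22.0 and 16.9 FPKM in CV. The ZM libraries were the highest 3 of the 9 and GF and CV overlapped (0.60, SE 0.13, unadjusted p = 0.00111, adjusted p = 0.848 in ZM against GF). The ratio of kmt5ab to its paralog kmt5aa was 0.877, 0.863 and 0.836 in ZM, 0.411, 0.487 and 0.609 in GF, and 0.419, 0.594 and 0.442 in CV, so ZM was apart from both other groups (exact permutation test, two-sided p = 0.1 for each, the smallest possible). As kmt5ab was picked for its high fold change in ZM, this ratio largely repeats that difference and adds no separate support. EED, whose values are given above, was higher in each ZM library than in any GF library (0.58, SE 0.26, adjusted p = 0.848), as was KDM5A (0.54, SE 0.33, adjusted p = 0.863). PRMT1 had a log2 fold change of 0.40 (SE 0.17, adjusted p = 0.848). SUV39H1 (ENSDARG00000055753), which trimethylates H3K9 in heterochromatin, and SETD9 also had an unadjusted p under 0.05 (0.33 and 0.39).

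The lowest fold change was that of kdm4c, with 3.42, 2.60 and 4.76 FPKM in ZM against 5.79, 4.85 and 5.44 FPKM in GF (-0.49, SE 0.22, unadjusted p = 0.0465, adjusted p = 0.848). It was followed by kdm4ab (-0.44, SE 0.21, adjusted p = 0.848) and the KDM2B gene ENSDARG00000046010 (-0.43, SE 0.27, adjusted p = 0.863), in which the 3 ZM libraries were the lowest of the 9. The proliferation list moved in the same comparison, with summed FPKM of 981 to 1438 in ZM, 797 to 894 in GF and 761 to 889 in CV. At an unadjusted p under 0.05 (limma) 5 of its 7 genes were higher, where 2.55% of all genes tested were. The neuron list moved the other way, with a median of -0.36 and 3 of 8 genes lower at that p, where 3.16% of all genes tested were. Its sums were 749 to 1090 in ZM, 993 to 1229 in GF and 920 to 1283 in CV. The lens list summed to 635 to 1132 in ZM, 1192 to 1432 in GF and 1271 to 1522 in CV, with 2 of 5 genes lower at that p. Of the other lists, 1 of 6 progenitor and 1 of 4 erythrocyte genes were higher and 1 of 4 liver and yolk genes was lower. The part of these lists in the values of the writers and erasers was not tested.

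Set against CV, 0 members were called in ZM in either direction (limma, adjusted p under 0.1, as was the case for 0% of all genes tested), while without adjustment p was under 0.05 for 32 with lower FPKM in ZM (54.2%, background 16.5%) and for 6 with higher FPKM (10.2%, background 6.94%). Of the 32, 16 were erasers of 21 tested and 16 were writers of 34, and the medians were -0.78 and -0.40, against -0.05 for all genes tested. KMT2D, NSD3, kdm4aa and ASH1L had means under 1 FPKM in both ZM and GF and passed the filter through CV alone. KMT2D, NSD3 and kdm4aa are among the 32, as is prmt8b, whose ZM mean was 0.919 FPKM. The share of all genes without such genes is not given. The ZM libraries were all below the CV libraries for 18 members (30.5%, background 13.3%) and all above them for 6 (10.2%, background 8.51%). CV 2 decided whether there were calls: without it 33 members were lower (background 16.6%) and 6 higher (background 8.3%), with 16 of 21 erasers and 17 of 34 writers lower. The 6 that were higher without CV 2 were kmt5ab, PRMT1, PRMT3, PRMT6, SETD6 and KDM8. NSD3 and ASH1L were among the 33 lower.

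The KDM5B gene ENSDARG00000003098 had a log2 fold change in ZM against CV of -1.29 (SE 0.31, adjusted p = 0.156), and of -1.65 without CV 2 (adjusted p = 0.00785). KMT2E had -1.20 (SE 0.41, adjusted p = 0.156), and -1.74 without CV 2 (adjusted p = 0.00785). KDM6A, which was intermediate in ZM, had -0.78 (SE 0.27, adjusted p = 0.158), and -1.01 without CV 2 (adjusted p = 0.0374). At the other end were kmt5ab with 0.63 (SE 0.13, adjusted p = 0.156), PRMT1 with 0.38 (SE 0.17, adjusted p = 0.211) and SETD6 with 0.36 (SE 0.14, adjusted p = 0.176), which without CV 2 had 0.71, 0.55 and 0.43 (adjusted p = 0.0117, 0.0401 and 0.064).

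The complexes and cofactors around these enzymes were described in the same way, by lists of gene names. Their counts are to be read against the 11.6% of all genes called lower in GF, and the counts without CV 2 against 17%. Of 10 tested partners of KDM1A 5 were called lower in GF than in CV, namely RCOR2, ZMYM2, GSE1 and both genes named INSM1, a transcription factor of newborn neurons, and the median of the list was -0.91 (7 of 10 called without CV 2). Of 15 subunits of MLL or SET1 complexes, not all of them common to both, 4 (26.7%) were called lower. They were RBBP5, hcfc1a, hcfc1b and ncoa6, with log2 fold changes between -1.61 and -1.38, whereas the median of the list was 0.05. Among the accessory subunits of PRC2 2 of 6 were called lower, JARID2 (ENSDARG00000060925) and AEBP2. This JARID2 gene had means of 0.417 FPKM in GF, 0.609 in ZM and 2.01 in CV, and passed the filter through CV. The other gene of that symbol, ENSDARG00000062268, was under the filter. Among PRC1 genes 2 of 17 were called lower, phc1 and phc2b, which at 11.8% was near the share over all genes. phc1 had a GF mean of 0.988 FPKM and passed the filter through its other groups. The calls were 1 of 11 for readers of H3K9 methylation and partners of SETDB1 (TRIM33), 5 of 21 for SMYD and PRDM genes (8 without CV 2), and 2 of 11 for JmjC genes outside the name rule, PHF8 and JMJD1C (4 without CV 2). For the supply of cofactors 1 of 14 genes of S-adenosylmethionine metabolism was called lower (3 without CV 2), and 2 of 14 genes of 2-oxoglutarate supply, ogdha and OGDH, shares of 7.1% and 14.3% that were near that over all genes. The first was MAT2A (ENSDARG00000040334, -1.28), which makes S-adenosylmethionine, while the other gene of that symbol, ENSDARG00000037121, was not called (0.42, adjusted p = 0.504). With all 9 samples no gene of these 9 lists was called higher in GF, and none was called in ZM against GF or ZM against CV. Without CV 2 some were called higher in GF, where 6.03% of all genes tested were. They were 3 of 11 readers of H3K9 methylation and partners of SETDB1, 1 of 17 PRC1 genes and 1 of 14 genes of 2-oxoglutarate supply.

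The 10 genes under the filter were kmt2a, SETD1B, setd1bb, the KMT2C gene ENSDARG00000079312, NSD1, the SUV39H1 gene ENSDARG00000026799, ezh1, DOT1L, PRMT8 and SETD5. kmt2a, the founding MLL gene, had 0.553, 0.681 and 0.572 FPKM in ZM, 0.471, 0.492 and 0.355 FPKM in GF, and 0.665, 0.818 and 1.97 FPKM in CV. SETD1B, the catalytic subunit of a SET1 complex, had 0.633, 0.669 and 0.461 FPKM in ZM, 0.565, 0.364 and 0.406 FPKM in GF, and 1.26, 0.813 and 1.71 FPKM in CV. For these, for SETD5 and for KMT2C the GF libraries lay below the CV libraries (exact permutation test, two-sided p = 0.1, the smallest possible), and for the other 6 they overlapped. Of all genes tested, 17.7% had GF below CV without overlap and 9.14% had GF above. The share among all genes under the filter is not given, and values this low are not well separated from 0. DOT1L, the sole H3K79 methyltransferase known in vertebrates, had 0.409, 0.371 and 0.274 FPKM in ZM, 0.486, 0.122 and 0.194 FPKM in GF, and 0.385, 0.496 and 1.28 FPKM in CV. ezh1, the alternative catalytic subunit of PRC2, had 0.659, 0.526 and 0.489 FPKM in ZM, below GF at 1.07, 0.742 and 0.704 FPKM and CV at 0.745, 0.736 and 1.15 FPKM (exact permutation test, two-sided p = 0.1 for each). Of all genes tested, 6.17% had ZM below GF without overlap and 13.3% had ZM below CV.

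Some of the genes are neighbours in the RefSeq annotation of the GRCz12tu assembly, in which 51 members with a unique symbol were found. There ash1l and setdb1a have 1 annotated gene between them, kmt2ba follows 6 genes from setdb1a, and kmt2e and kdm7aa have 1 gene between them. In GF against CV KMT2E and kmt2ba were called, and kdm7aa (-0.37, adjusted p = 0.348), ASH1L (-0.64, adjusted p = 0.166) and setdb1a were not. Without CV 2 ASH1L was called too (adjusted p = 0.0361), and differences between neighbours were not tested.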

How the data were processed

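RNA from 3 ZM, 3 GF and 3 CV samples was sequenced from poly(A) libraries. The authors checked reads with FastQC 0.11.8, mapped them with HISAT2 2.1.0 to GRCz11 and deposited FPKM from StringTie 1.3.4d, scaled to each library's own total. Per the submitters' notes, differential expression used HTSeq 0.11.0 and DESeq2 1.29.13. Counts were not used here, and no count test was run. Whole reads could not be recovered from FPKM (no more than 5 of 940 low genes had a common CV 1 to CV 2 ratio), so the reads behind a value are unknown and no counting interval is given. Separate clutches are not stated in the labels, so p-values measure the spread between these samples only.

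Symbols came from a name table (29201 of 32520 IDs), and 5 symbols were shared by 2 members each. R 4.3.3, limma 3.58.1 and Python 3.11.15 were used: lmFit, contrasts.fit and eBayes with trend on log2(FPKM + 1), genes with a mean of at least 1 FPKM, two-sided, no block. The scripts were tested on simulated data. The study used a threshold of 0.05, and 0.1 for ZM against GF. Here 0.1 was used in all comparisons. Members and lists were chosen with earlier results of these data known. Genes were named by rule (the 2 highest tested genes of each class, the 3 lowest and 3 highest fold changes of each comparison, members under an adjusted p of 0.05, and paralogs of named genes). Others were named after their values were seen. Deviations of samples with the same replicate number were correlated in ZM and GF (0.409, 0.466 and 0.616 for replicates 1, 2 and 3), but not in each pair with CV (-0.058, 0.146 and 0.316 for GF, and 0.062, 0.061 and 0.488 for ZM). Alternatives were another pseudocount, 2 filters, 3 rescalings, only the 2 groups compared, no trend, a replicate block, a stricter threshold, and each sample left out. Sequences were not used here.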

Additional observations from a re-analysis of the deposited data

How the results depend on the processing

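The 26 members called lower in GF than in CV became 0 with all genes above 0 in any sample, 0 with only the 2 groups compared, 0 at an adjusted p under 0.05, 13 of 37 with a mean FPKM of at least 5 (35.1%, against 7.68% of all genes) and 15 of 59 after quantile normalization (25.4%, against 5.57%). In the first 2 of these settings 0 and 1 of all genes tested were called lower. Leaving out each sample gave 0 to 31 members lower in GF than in CV, and 0 to 33 lower and 0 to 6 higher in ZM than in CV. The highest values came without CV replicate 2. When samples were left out, limma assumed the remaining samples of a group to vary like the others. The median log2 fold change of the writers with a mean FPKM of at least 5 was -0.015 in GF against CV and -0.055 in ZM against CV. When single samples were left out, medians in GF against CV were -1.27 to -0.69 for erasers and -0.46 to -0.28 for writers. With a replicate block 27 members were lower in GF than in CV (45.8%, against 12.5% of all genes tested). With the block in a fit of the 2 groups compared, added after seeing the data, the count was 23 (39%, against 11.1% of all genes tested). Of the members, 21 then had an adjusted p under 0.05, and the share of all genes at that threshold is not given for this fit. Deviations of GF and CV samples with the same replicate number correlated at -0.058, 0.146 and 0.316. Pairing by number was thus not shown for these groups, and the block has little basis there. In ZM against GF, where samples with the same replicate number were correlated, the block gave 0 calls of members, as without it. It changed no call of a member in ZM against CV. With the block in a fit of ZM and GF only, 0 members were called. At an unadjusted p under 0.05 (limma) 13 were then higher and 3 lower in ZM, beside 5 and 1 in the main fit. The fit of ZM and GF only without the block gave 11 higher and 3 lower at that p, and 0 calls. The share of all genes at that p is not given for the fits of ZM and GF only. None of the 26 genes called in GF against CV changed direction in that comparison under the 19 alternatives. These genes were selected for being lower in GF. Fits without trend, with a block, of the 2 groups only or without a ZM sample leave their fold changes as they were. The unchanged direction is therefore a description and not a test. Rescaling to an equal sum moved the median of all genes to -0.09 in GF against CV and to -0.16 in ZM against CV, and quantile normalization to 0.12 and 0.07. The stricter threshold has no bearing on fold changes. Low depth cannot be judged from FPKM.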
